A study of Salix linearistipularis with 24 samples.

Results

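Female roots of *Salix linearistipularis* after 24 h of 100 mM NaCl were compared with female control roots. The comparison took 6 of the 24 RNA-seq libraries of the series, the 3 female 24 h libraries and the 3 female control libraries, as their labels name them. The contigs of a cluster (CL) were summed to 1 gene, and single unigenes were kept as they were. The study set female against male cuttings of this willow to see how roots of each sex responded to salinity. Hydroponic cuttings stood at 0 mM NaCl or in 100 mM NaCl for 6, 12, or 24 h, and no source names the hour of the control harvest. The labels describe cuttings of 1 female and 1 male individual, whereas the methods name trees of several populations and 3 independent experiments per condition. If all female cuttings came from 1 plant, the values below describe that plant, and p-values measure only the spread between libraries, which may be technical.

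Under salinity, salt in the medium holds back water from root cells, and Na+ enters them. Plants respond by moving Na+ into the vacuole or back out of the cell through sodium/hydrogen antiporters of the NHX family, by making chaperones that keep proteins folded, and by removing reactive oxygen species with enzymes such as ascorbate peroxidase. Transcription factors of the MYB and WRKY families and kinases of the abscisic acid pathway carry the signal to these genes.

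Values are FPKM (fragments mapped to a transcript, relative to its length and to all mapped fragments of the library) of a *de novo* assembly. Protein names were taken from the salt response and reactive oxygen species lists of the study, which hold 157 genes, of which 146 were tested. The study drew both lists from DEGs of these same samples, so a count of DEGs among them is no independent evidence of a response. In the compared libraries, summed FPKM lay between 705973 and 716878 in female control libraries and between 673333 and 678169 at 24 h, while no source used here states the reads of each library. Genes with at least 1 FPKM numbered from 47463 to 48033 in control and from 34141 to 35098 at 24 h, while the 10 most abundant genes took from 3.26% to 3.40% and from 5.57% to 5.67% of the summed FPKM. The most abundant contig of a cluster differed between a control and a 24 h library in 24.3% of clusters, against 12% and 13% between libraries within these groups. It differed in 56.4% of clusters between female 6 h and 24 h libraries and in 60.1% between male control and male 24 h libraries, so that comparisons with these groups set libraries of unlike contigs against each other, and the part of this in their results was not tested. The tissue label could not be checked against root markers, since only list genes carried a name.

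Of 95202 genes tested, 30084 (31.6%) were DEGs after 24 h of NaCl, 8575 (9.01%) higher and 21509 (22.6%) lower. A gene was a DEG where its limma adjusted p was 0.05 or less and its ratio at least 1 in size on the log2(FPKM + 0.5) scale, which understates the change of genes with low FPKM. Each SE and adjusted p rests on a spread pooled over all 24 libraries, not on the 6 compared libraries alone. The pool takes in the male 6 h libraries, whose replicates lay far apart for genes such as CL697. In a fit of the compared groups alone, the SE of small heat shock protein gene CL697 was 0.059 in place of 0.48. There *NHX* gene CL2217 had a limma adjusted p of 4.76e-04 in place of 0.09, with a ratio under the threshold in both fits. The median log2 ratio of all genes tested was -0.30. The 52040 genes with a mean under 1 FPKM over the 6 libraries were called less often, 5.21% higher and 9.60% lower. Of the 32897 genes between 1 and 10 FPKM, 12.2% were higher and 40.9% lower. Among the 1073 genes between 100 and 1000 FPKM, 34.9% were higher and 22.8% lower. The balance of the directions moved with the scaling of the libraries. When they were scaled by the median of ratios, which moved the median of all genes to -0.07, 11494 genes were higher and 13718 lower, so that higher genes made up 45.6% of the DEGs in place of 28.5%. Of the 146 list genes, 39 were higher and 41 lower (54.8% called, against 31.6% of all genes), and 49 were higher and 19 lower when scaled by the median of ratios. The share of all genes takes in the many genes under 1 FPKM. Here and below, list genes and all genes were not compared at equal levels. All 3 libraries of 24 h lay above all 3 control libraries for 15.5% of genes and below them for 41.3%.

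Actin gene CL19537, the reference gene of the qPCR assays of the study and a subunit of the cytoskeleton, was itself lower at 24 h. It stood at 336, 369.9, and 377 FPKM in control libraries and at 15.9, 16.5, and 15.6 FPKM at 24 h. The libraries did not overlap, and the level fell 22.6-fold, log2 ratio -4.45 ± 0.37 (SE, limma adjusted p = 4.17e-09). It also fell with libraries scaled by the median of ratios, where the log2 ratio was -3.94. Scaled to actin, 55757 genes were higher and 2159 lower, and the lower genes whose direction then turned are named below. This scaling raises the 24 h level of every gene relative to control, so a fall in FPKM smaller than that of actin turns by construction.

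**Figure D1:**
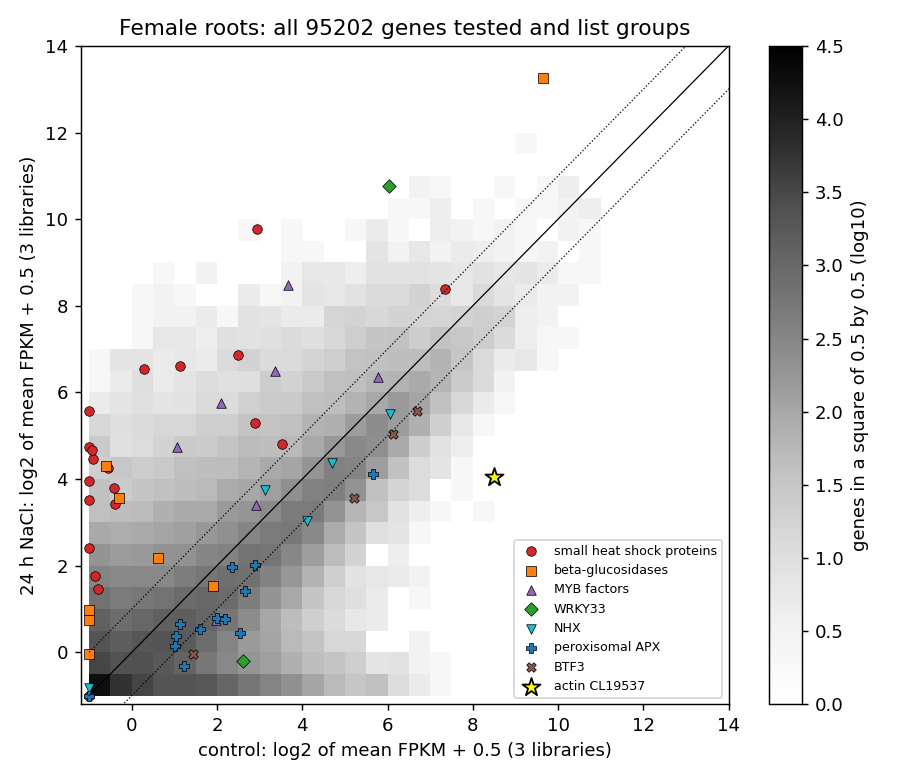
Mean FPKM of the 3 female control libraries (x axis) and the 3 female 24 h libraries (y axis) as log2 of FPKM + 0.5, with the number of all tested genes per square in grey (log10) and genes of 7 list groups and actin as coloured points. The solid line marks equal levels and the dotted lines a log2 ratio of 1 and -1; 19 of 20 small heat shock proteins lie above the upper dotted line and actin CL19537, from 360.9 to 16.0 FPKM, far below.

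The 5 *NHX* genes, which encode sodium/hydrogen antiporters, gave 1 DEG in female roots at 24 h, with a lower level. Their summed level was 116 ± 1.86 FPKM (SD, n = 3) in control and 85.7 ± 1.15 FPKM at 24 h, and the ratio of the means turned to 1.06 when scaled by the median of ratios and to 16.6 when scaled to actin. *NHX* gene CL7345, with its match to sodium/hydrogen exchanger 7, the plasma membrane antiporter SOS1 of *Arabidopsis*, was the only DEG of the family. It stood at 16.8, 17.7, and 16.2 FPKM in control and 7.42, 8.12, and 7.38 FPKM at 24 h, with no overlap, log2 ratio -1.09 ± 0.20 (SE, limma adjusted p = 1.41e-04). With libraries scaled by the median of ratios it was no DEG (log2 ratio -0.60, limma adjusted p = 0.0562), and scaled to actin its direction turned. The primers by which the study amplified its cDNA are shown because they tie the CL7345 named here to a sequence.
CL7345 forward primer: atggggagtgcgatagaaaa
CL7345 reverse primer: caatgccgatgacgagaaga

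*NHX* gene CL9910, a match of exchanger 1, the vacuolar antiporter that loads Na+ or K+ into the vacuole in *Arabidopsis*, was the most abundant *NHX* gene per length. It stood at 64.8, 67, and 65.5 FPKM in control and at 45.5, 44.4, and 44.7 FPKM at 24 h, and all 24 h libraries were lower, by less than the fold asked of a DEG, log2 ratio -0.55 ± 0.14 (SE, limma adjusted p = 0.00333). That ratio is of the sum of its contigs, and the contigs of CL9910 went in opposite directions. Of 9 tested in a fit of all contigs, 1 was higher and 1 lower, with log2 ratios from -1.118 to 1.469. Contig 6 of CL9910 fell from a mean of 39.97 FPKM in control to 18.14 FPKM at 24 h. *NHX* gene CL3276, another match of exchanger 1, had a higher summed level at 24 h. Its levels were 8.09, 7.7, and 8.91 FPKM in control and 12.9, 11.9, and 14.2 FPKM at 24 h, without overlap, log2 ratio 0.62 ± 0.09 (SE, limma adjusted p = 1.60e-05). Scaled by the median of ratios it was a DEG with a log2 ratio of 1.12. CL2217, a match of exchanger 6, which sits on internal membranes in *Arabidopsis*, was at 24.9, 25.9, and 25.4 FPKM and then at 20.6, 19.9, and 19.98 FPKM, log2 ratio -0.33 ± 0.15 (SE, limma adjusted p = 0.09), and both CL2217 and CL9910 turned when scaled to actin, CL2217 also by the median of ratios (0.18). Unigene43275 was listed at 0 in all control libraries and at 0, 0.12, and 0.06 FPKM at 24 h. The median log2 ratio of the 5 genes was -0.33, close to the -0.30 of all genes, and 0.18 when scaled by the median of ratios.

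Small heat shock proteins, chaperones that hold unfolding proteins in solution, were the group with the highest median. Of 20 genes tested, 19 rose, none fell, and 1 was listed at 0 in all 6 libraries. The median log2 ratio was 4.44 over the 20 genes and 4.29 over the 14 that were above 0 in at least 1 control library. Both counts and direction held with libraries scaled by the median of ratios or to actin. Both scalings raise the 24 h level of every gene relative to control, so neither could turn a rise. Their summed level went from 175, 202, and 209.6 FPKM in the control libraries to 1758, 1806, and 1795 FPKM at 24 h, a 9.14-fold rise of the mean. Many of these genes share 1 protein match, and reads of near-identical copies may have been split between them, so single genes are less certain than the sum.

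Class I gene CL697 was the most abundant small heat shock protein gene at 24 h per length. It stood at 6.71, 7.86, and 6.83 FPKM in control and 859.9, 895, and 885 FPKM at 24 h. The 24 h libraries were all above the control libraries, 123-fold in the means, log2 ratio 6.85 ± 0.48 (SE, limma adjusted p = 2.61e-10). All 11 of its contigs were DEGs with a higher level, with log2 ratios from 2.93 to 7.20. Class III gene CL12066 rose from 2.09, 1.35, and 1.62 FPKM to 95.1, 98.2, and 98.5 FPKM, log2 ratio 5.50 ± 0.46 (SE, limma adjusted p = 5.05e-09). Class II gene CL4285 rose from 4.56, 5.2, and 5.62 FPKM to 116, 116, and 117 FPKM, log2 ratio 4.38 ± 0.46 (SE, limma adjusted p = 1.19e-07). In each of the 3 genes the replicates lay close to each other and far from the other group.

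Class II gene CL17724 was the most abundant of the group in control roots and rose the least. Its levels were 142, 169, and 175 FPKM in control and 339, 333, and 336 FPKM at 24 h, log2 ratio 1.05 ± 0.29 (SE, limma adjusted p = 0.00607), and without female control replicate 1 the log2 ratio was 0.96, under the threshold. Its contigs went in opposite directions, and were called one by one in a fit of all contigs. Contig 3 rose from 0.173 ± 0.0416 to 152.5 ± 1.42 FPKM (SD, n = 3), while contig 2 fell from 86.0 ± 12.5 to 30.5 ± 3.79 FPKM. Contigs of a gene were called DEGs in both directions in 3 of the 57 clusters among the list genes and actin. Contigs that passed no threshold are not in this count.

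Class I gene Unigene20703 was below 1 FPKM in each control library. It stood at 0.57, 0.87, and 0.72 FPKM in control and 88.7, 99.5, and 89.4 FPKM at 24 h, log2 ratio 6.26 ± 0.38 (SE, limma adjusted p = 2.49e-11). Unigene17995 was listed at 0 in all control libraries and reached 46, 48.6, and 46.7 FPKM at 24 h, so that no fold can be given (limma adjusted p = 2.88e-06). Unigene14279 was listed at 0 in 2 of 3 control libraries and stood at 21.1, 22.3, and 21.8 FPKM at 24 h, and Unigene19260 went from 0.15, 0.15, and 0.23 to 19.1, 16.6, and 20.3 FPKM. Unigene29404 was the 1 member listed at 0 in every control and 24 h library.

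Of the other chaperones tested, none was a higher DEG. Mitochondrial Hsp70 gene CL4614, an ATP-driven chaperone, stood at 18, 18.8, and 17.8 FPKM in control and 26.1, 25.8, and 27.6 FPKM at 24 h, log2 ratio 0.53 ± 0.26 (SE, limma adjusted p = 0.11), but was a DEG with a log2 ratio of 1.04 when scaled by the median of ratios. Both BAG regulator genes, whose products bind Hsp70, were lower. CL12578 fell from 16.5, 19.6, and 16.9 to 6.29, 6.72, and 7 FPKM, log2 ratio -1.34 ± 0.20 (SE, limma adjusted p = 1.43e-05), and Unigene64280 from 3.68, 3.06, and 1.9 to 0.5, 0.51, and 0.67 FPKM. CL12578 had a log2 ratio of -0.84 and was no DEG when scaled by the median of ratios, and both turned when scaled to actin.

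**Figure D2:**
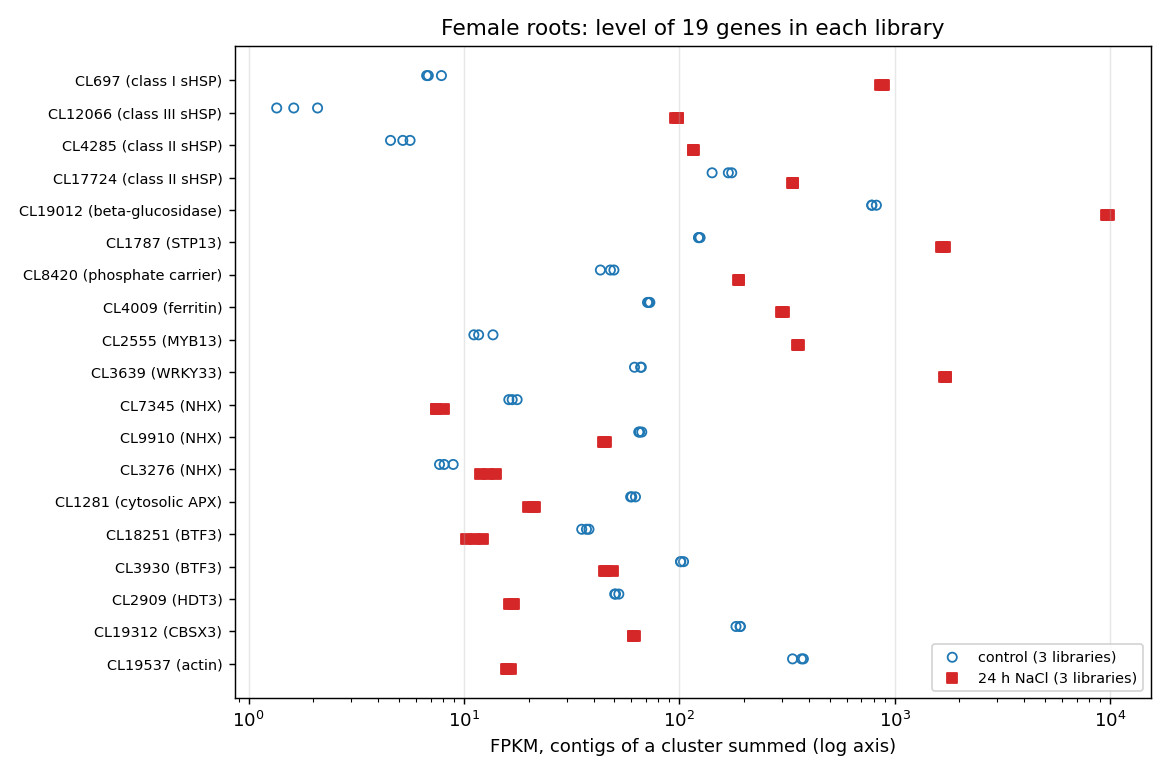
FPKM on a log axis of 19 named genes in each of the 3 female control libraries (open blue circles) and the 3 female 24 h libraries (red squares). No gene shown has overlapping groups; the beta-glucosidase CL19012 reaches from 9571 to 9897 FPKM at 24 h, and actin CL19537 falls below 17 FPKM.

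Beta-glucosidases, which release sugars and aglycones from glucosides, held the most abundant of all list genes. Of 8 genes tested, 6 rose and none fell, with a median log2 ratio of 1.84, and of 3.61 over the 5 genes above 0 in control. The counts were the same with libraries scaled by the median of ratios, which raises the 24 h level of every gene relative to control. CL19012, a match of a non-cyanogenic beta-glucosidase, stood at 823, 783, and 785 FPKM in control and 9571, 9897, and 9749.6 FPKM at 24 h. It was 12.2-fold higher, log2 ratio 3.61 ± 0.32 (SE, limma adjusted p = 9.99e-09), and alone took from 1.42% to 1.46% of the summed FPKM of the 24 h libraries against 0.109% to 0.117% in control. Of its 65 contigs, 57 were higher and none lower.

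Unigene27717, a match of beta-glucosidase 12, rose from 0.08, 0.27, and 0.13 FPKM to 17.4, 20.2, and 19.8 FPKM, log2 ratio 4.90 ± 0.22 (SE, limma adjusted p = 1.79e-13). Unigene21524, a match of beta-glucosidase 11, rose from 0.26, 0.38, and 0.31 to 12, 11.4, and 10.4 FPKM, log2 ratio 3.85 ± 0.61 (SE, limma adjusted p = 3.18e-05). The groups did not overlap in either gene. Unigene13449 was not a DEG (log2 ratio -0.33, turned when scaled to actin or, to 0.11, by the median of ratios), and CL3595 was listed at 0 in control and at 0.18, 1.05, and 0.17 FPKM at 24 h, with 1 library standing apart. Without female 24 h replicate 1 or replicate 3, CL3595 became a DEG, with log2 ratios of 1.03 and 1.04.

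Hevein and hevamine genes, which bind or cut chitin, gave no DEG among 3 tested. The pro-hevein gene CL13878 held 445 ± 2.93 FPKM (SD, n = 3) in control and 385 ± 8.03 FPKM at 24 h, and hevamine gene CL8158 108 ± 3.53 and 170.4 ± 7.45 FPKM. Scaled by the median of ratios, CL8158 was a DEG with a log2 ratio of 1.17.

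MYB factors rose in 4 of 7 genes and fell in 1, with a median log2 ratio of 3.13, and with libraries scaled by the median of ratios 5 rose and none fell. *MYB13* gene CL2555 led them, with 13.6, 11.7, and 11.1 FPKM in control and 358, 357, and 353 FPKM at 24 h. The means differed 29.3-fold, log2 ratio 4.82 ± 0.31 (SE, limma adjusted p = 6.77e-11). The MYBS3 gene CL5344, whose rice counterpart represses genes of starch-degrading amylase, went from 1.94, 1.29, and 1.51 to 26.6, 26.8, and 25.2 FPKM, log2 ratio 3.69 ± 0.37 (SE, limma adjusted p = 6.62e-08). Of the matches of KUA1, a repressor of peroxidase genes in *Arabidopsis*, Unigene43889 rose from 9.81, 8.96, and 10.5 to 85.7, 91.4, and 90.6 FPKM and Unigene12477 from 3.68, 3.67, and 3.88 to 53.8, 53.4, and 53.2 FPKM, whereas Unigene37971 had a log2 ratio of 0.48. Unigene75289, a match of MYBS1, was the 1 lower gene. It went from 3.15, 3.87, and 3.22 to 1.15, 1.49, and 0.92 FPKM, log2 ratio -1.22 ± 0.21 (SE, limma adjusted p = 7.45e-05), was no DEG when scaled by the median of ratios (log2 ratio -0.81) and turned when scaled to actin.

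The *WRKY33* genes moved apart. WRKY33 controls defence against fungi and takes part in salt tolerance in *Arabidopsis*. CL3639 stood at 66.6, 62, and 66.2 FPKM in control and 1740.4, 1702, and 1742 FPKM at 24 h, 26.6-fold higher, log2 ratio 4.72 ± 0.25 (SE, limma adjusted p = 3.34e-12). Unigene26361 stood at 4.58, 6.96, and 5.14 FPKM in control and 0.2, 0.36, and 0.55 FPKM at 24 h, log2 ratio -2.80 ± 0.49 (SE, limma adjusted p = 8.58e-05). Neither gene had overlapping groups, and scaled to actin Unigene26361 had a log2 ratio of 0.39 that passed no threshold. Because CL3639 is far more abundant, the sum of both followed it, from 70.5 ± 1.35 to 1728 ± 22.7 FPKM (SD, n = 3).

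All 4 genes of basic transcription factor 3, the beta subunit of the complex that meets new polypeptides at the ribosome, fell, 2 of them also with libraries scaled by the median of ratios, and all 4 turned when scaled to actin. CL18251 went from 38.1, 37.1, and 35.2 to 11.2, 12.3, and 10.2 FPKM, log2 ratio -1.67 ± 0.28 (SE, limma adjusted p = 5.69e-05). CL3930, the most abundant, went from 105, 101, and 102 to 45.8, 44.9, and 49.4 FPKM, log2 ratio -1.13 ± 0.24 (SE, limma adjusted p = 7.79e-04). Unigene24178 and Unigene24762 had log2 ratios of -1.10 and -1.45. The summed level of the 4 genes was 211 ± 2.09 FPKM (SD, n = 3) in control and 90.6 ± 2.12 FPKM at 24 h, with a ratio of 0.616 when scaled by the median of ratios and of 9.66 when scaled to actin.

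**Figure D3:**
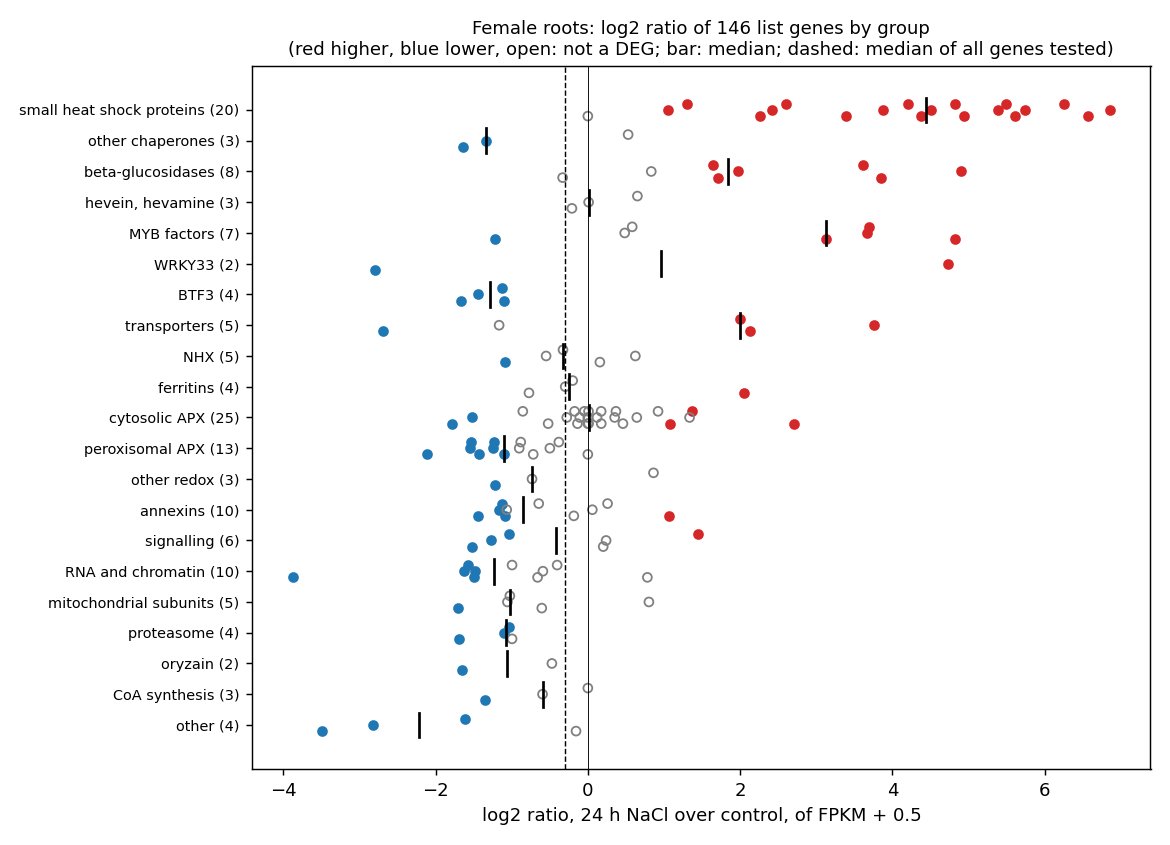
Log2 ratio of FPKM + 0.5, female 24 h over female control, of each tested list gene by group (number tested in parentheses); red points are higher DEGs, blue points lower DEGs, open points no DEGs, black bars the group medians, and the dashed line the median of all genes tested, -0.30. Small heat shock proteins have a median of 4.44 and peroxisomal ascorbate peroxidases of -1.10, and when libraries are scaled to actin, the medians of all groups lie above 0 except that of the genes set apart as other, at -0.08.

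Transporter genes gave 3 higher DEGs and 1 lower among 5 tested. Sugar transport protein 13 gene CL1787, a hexose carrier of the plasma membrane in *Arabidopsis*, stood at 125, 123, and 123 FPKM in control and 1638, 1707, and 1674 FPKM at 24 h. The groups did not overlap, and the means differed 13.5-fold, log2 ratio 3.75 ± 0.18 (SE, limma adjusted p = 9.07e-13). Mitochondrial phosphate carrier gene CL8420, which feeds phosphate to ATP synthesis, rose from 43, 49.7, and 47.9 to 189.6, 187, and 189.7 FPKM, log2 ratio 2.001 ± 0.12 (SE, limma adjusted p = 3.72e-11). Unigene7100, a match of the water channel aquaporin PIP2-4, went from 1.29, 1.46, and 1.98 to 7.68, 9.47, and 8.5 FPKM, log2 ratio 2.13 ± 0.23 (SE, limma adjusted p = 1.68e-07).

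Unigene57331, a match of catalytic subunit A of the V-type proton ATPase, which builds the proton gradient that vacuolar NHX proteins use, stood at 2.69, 2.78, and 2.67 FPKM in control and was listed at 0 in all 24 h libraries (limma adjusted p = 6.77e-09). Its nearest match is from a green alga. CL4278, a match of an ABC transporter of the G family, was at 0.51, 0.55, and 0.83 FPKM in control and listed at 0 at 24 h. It was no DEG in the model of all groups (limma adjusted p = 0.0710) and was one in a fit without the male 6 h libraries (limma adjusted p = 2.89e-06).

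Cytosolic ascorbate peroxidases, which reduce H2O2 with ascorbate, showed no common direction among their DEGs. Of 25 genes tested, 3 rose and 2 fell. The median log2 ratio was 0.01 over the 25 genes and 0.12 over the 21 that were above 0 in at least 1 control library. The gene at the median of the 25 was listed at 0 in all control libraries and at 0.01 FPKM or less at 24 h. With libraries scaled by the median of ratios 6 rose and 2 fell. The most abundant gene, CL2500, went from 343, 363, and 362 FPKM to 194, 202, and 194 FPKM, without overlap but under the fold of a DEG, log2 ratio -0.85 ± 0.17 (SE, limma adjusted p = 2.93e-04). CL1281 fell from 62.6, 60.2, and 59.5 to 21.5, 19.9, and 21 FPKM, log2 ratio -1.52 ± 0.25 (SE, limma adjusted p = 3.82e-05), and CL11411 from 5.42, 5.84, and 5.44 to 1.3, 1.22, and 1.25 FPKM. The falls of CL1281 and CL11411 turned when scaled to actin. The highest ratios belonged to genes of low level. Unigene5916 went from 0, 0, and 0.84 to 4.23, 5.07, and 3 FPKM, log2 ratio 2.70 ± 0.55 (SE, limma adjusted p = 4.43e-04), and Unigene27622 from 2.3, 3.27, and 3.18 to 7.5, 9.67, and 7.62 FPKM, log2 ratio 1.36 ± 0.45 (SE, limma adjusted p = 0.0188). Without female control replicate 1 or female 24 h replicate 2, Unigene27622 was no DEG (log2 ratios 1.22 and 1.25, limma adjusted p = 0.0688 and 0.0641). The summed level of all cytosolic genes depends less than single genes on how reads were split between near-identical copies. It was 541, 559, and 550.3 FPKM in control and 352, 358, and 356 FPKM at 24 h, a ratio of the means of 0.927 when scaled by the median of ratios and of 14.5 when scaled to actin.

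Peroxisomal ascorbate peroxidases fell in 7 of 13 genes and rose in none, in 3 of 13 with libraries scaled by the median of ratios, and turned when scaled to actin. The median log2 ratio was -1.10. Their summed level went from 94, 90.02, and 88.3 FPKM in control to 31.9, 33.3, and 35.1 FPKM at 24 h, 2.71-fold lower without overlap, with a ratio of 0.529 of the 24 h to the control mean when scaled by the median of ratios and of 8.28 when scaled to actin. Unigene15143 had the lowest ratio, with 5.2, 5.99, and 4.85 FPKM in control and 0.82, 0.94, and 0.8 FPKM at 24 h, log2 ratio -2.11 ± 0.28 (SE, limma adjusted p = 2.83e-06). Unigene23722 fell from 1.94, 2.19, and 1.39 to 0.47, 0.24, and 0.2 FPKM, log2 ratio -1.54 ± 0.21 (SE, limma adjusted p = 4.04e-06). At the other end stood Unigene28724 (log2 ratio -0.38, turned when scaled to actin or, to 0.08, by the median of ratios) and Unigene17812, which was listed at 0 in all 6 libraries.

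Ferritin, which stores iron in plastids and keeps it from forming radicals, rose in 1 of 4 genes. CL4009 stood at 72.2, 73, and 71.2 FPKM in control and 296, 306, and 301 FPKM at 24 h, 4.17-fold higher, log2 ratio 2.05 ± 0.19 (SE, limma adjusted p = 2.15e-08). Of its contigs, 28 of 45 tested were higher and none lower. CL5890, Unigene5413, and Unigene26100 had log2 ratios of -0.30, -0.77, and -0.20 and passed no threshold, and all 3 turned when scaled to actin, CL5890 (0.215) and Unigene26100 (0.015) also by the median of ratios. Persulfide dioxygenase gene CL18355, an enzyme of mitochondrial sulfur oxidation, fell from 52.4, 50.9, and 52 to 22.2, 22.1, and 21.7 FPKM, log2 ratio -1.22 ± 0.15 (SE, limma adjusted p = 1.85e-06), was no DEG when scaled by the median of ratios (log2 ratio -0.71), and turned when scaled to actin. Glutathione S-transferase gene CL4774 was at 151 ± 5.02 FPKM (SD, n = 3) in control and 274 ± 3.27 FPKM at 24 h, under the fold of a DEG, and was a DEG with a log2 ratio of 1.38 when scaled by the median of ratios.

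Signalling genes gave 1 higher and 3 lower DEGs among 6. VQ motif gene CL12613, of a family whose members bind WRKY factors, rose from 83, 87.9, and 85.9 FPKM to 231, 234, and 235 FPKM, log2 ratio 1.44 ± 0.19 (SE, limma adjusted p = 2.77e-06). One of its 3 contigs, contig 3, rose from 18.1 ± 1.03 to 187.8 ± 3.20 FPKM (SD, n = 3), while contig 1 went from 34.4 ± 1.01 to 25.8 ± 0.782 FPKM. *SAPK1* gene CL1315, a kinase activated by osmotic stress in rice, stood at 6.73, 5.74, and 6.46 FPKM in control and 8.18, 7.78, and 6.7 FPKM at 24 h, overlapping only between the highest control and the lowest 24 h library, log2 ratio 0.24 ± 0.14 (SE, limma adjusted p = 0.199). XERICO gene CL13859, a RING-type ubiquitin ligase that raises abscisic acid in *Arabidopsis*, fell from 13.2, 14.4, and 15.4 to 4.7, 4.59, and 4.74 FPKM, log2 ratio -1.52 ± 0.14 (SE, limma adjusted p = 1.15e-08). CL12340, a match of phosphatase PTEN2B, fell from 7.1, 6.58, and 7.1 to 2.65, 2.62, and 2.49 FPKM. Unigene10323, a phosphatase of RNA polymerase II, had a log2 ratio of -1.04 (limma adjusted p = 0.0182), of -0.80 without female control replicate 1, and of -0.95 without female 24 h replicate 1, where it was no DEG. Scaled by the median of ratios, CL12340 and Unigene10323 were no DEGs, and scaled to actin all 3 falls turned.

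Annexins, which bind membranes in the presence of calcium, fell in 4 of 10 genes and rose in 1, but with libraries scaled by the median of ratios none fell, and scaled to actin 8 rose. Unigene12580 went from 15.4, 15.2, and 13.7 to 5.24, 5.22, and 4.9 FPKM, log2 ratio -1.44 ± 0.23 (SE, limma adjusted p = 2.40e-05), and Unigene18671 from 10.8, 10.3, and 10.9 to 4.43, 4.93, and 4.03 FPKM, log2 ratio -1.17 ± 0.32 (SE, limma adjusted p = 0.00493). Annexin D4 gene CL17084 rose from 3.14, 5.13, and 4.28 to 8.53, 10.4, and 8.56 FPKM, log2 ratio 1.06 ± 0.29 (SE, limma adjusted p = 0.00512), with log2 ratios of 0.89 and 0.97, under the threshold, without female control replicate 1 and without female 24 h replicate 2. The summed level of the 10 genes, which rests on CL2944 and CL20529, was 319 ± 9.35 FPKM (SD, n = 3) in control and 280.2 ± 1.47 FPKM at 24 h, and turned to a ratio of 1.26 when scaled by the median of ratios.

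Genes of RNA processing, translation, and chromatin fell in 5 of 10 cases and rose in none. Of the 10, 3 fell and 1 rose with libraries scaled by the median of ratios, and 1 fell and 8 rose when scaled to actin. Histone deacetylase gene CL2909 (HDT3) went from 50.1, 52.4, and 50.6 to 17.2, 16.2, and 16.9 FPKM, log2 ratio -1.58 ± 0.22 (SE, limma adjusted p = 4.77e-06). The cyclin-L1 genes, whose products take part in splicing, both fell, CL2013 from 27.9, 28.6, and 29.9 to 11, 8.55, and 10.2 FPKM and Unigene56811 from 15.4, 12.7, and 13.1 to 3.63, 5.59, and 4.71 FPKM. Unigene62715, a chloroplast ribosomal protein gene, had a log2 ratio of -1.63. CBSX3 gene CL19312, a mitochondrial protein that acts on thioredoxin in *Arabidopsis*, fell from 183, 192, and 192 to 61.2, 62.4, and 60.9 FPKM, log2 ratio -1.61 ± 0.15 (SE, limma adjusted p = 2.10e-08). Coenzyme A synthesis gene CL14846 fell from 9.28, 8.83, and 9.4 to 3.12, 2.99, and 3.75 FPKM, and oryzain gene Unigene68418, a cysteine protease, from 19.5, 20.8, and 19.7 to 5.21, 6.46, and 6.46 FPKM. Scaled by the median of ratios, CL2013, Unigene56811, and CL14846 had log2 ratios from -0.995 to -0.883 and were no DEGs, and scaled to actin all 7 of these falls turned.

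Of the list genes, 20 tested genes had their nearest match outside the willow family, most often in the cork oak *Quercus suber*, and else in other plants, in algae, or in an oomycete. The organism these transcripts come from was not tested. Of them, 8 fell and 1, Unigene7100, rose (45% called, against 31.6% of all genes, 22.6% lower and 9.01% higher). Their summed level went from 76.5, 72.7, and 80.9 FPKM in control to 49, 51.2, and 52.3 FPKM at 24 h, with a ratio of 0.951 when scaled by the median of ratios and of 14.9 when scaled to actin. Polyadenylate-binding protein gene Unigene50175 had the lowest ratio of all list genes above 0. It stood at 8.22, 9.46, and 9.24 FPKM in control and 0.07, 0.13, and 0.25 FPKM at 24 h, log2 ratio -3.87 ± 0.21 (SE, limma adjusted p = 3.28e-12). Pyrophosphatase gene Unigene69581 was at 6.49, 3.65, and 5.58 FPKM in control and listed at 0 in all 24 h libraries, and aconitase gene Unigene52977 went from 2.66, 3.55, and 4.42 to 0.07, 0.13, and 0 FPKM, log2 ratio -2.82 ± 0.24 (SE, limma adjusted p = 7.74e-09).

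The proteasome genes on the list, which matched oak, fell in 3 of 4 cases, all at low level, in 1 of 4 with libraries scaled by the median of ratios, and 2 rose when scaled to actin. Unigene51500 went from 1.77, 1.47, and 1.97 to 0.26, 0.26, and 0.06 FPKM, log2 ratio -1.70 ± 0.31 (SE, limma adjusted p = 1.37e-04). CL5653 had a log2 ratio of -1.10 and lost its call when female control replicate 1 or 2 (-0.97 each) or female 24 h replicate 3 (-0.91) was left out. CL2954 had a log2 ratio of -1.04 and was no DEG without any 1 of 5 of the 6 libraries, with values from -1.10 to -0.95. CL2133 stood at 3.35, 2.59, and 5.16 FPKM and then at 1.28, 1.39, and 2.03 FPKM and was no DEG, log2 ratio -0.99 ± 0.46 (SE, limma adjusted p = 0.091). Cytochrome oxidase gene CL4869 fell from 17.7, 16.2, and 17.5 to 3.83, 4.66, and 6.56 FPKM, log2 ratio -1.70 ± 0.54 (SE, limma adjusted p = 0.0152), and was no DEG without female 24 h replicate 1 (log2 ratio -1.54, limma adjusted p = 0.0573). ATP synthase gene CL9911 had a log2 ratio of 0.80 and, as a DEG, of 1.30 when scaled by the median of ratios, and Unigene68158 of -1.06 (limma adjusted p = 0.107), with a DEG call in a fit of the compared groups alone (limma adjusted p = 0.00391). The lower values of Unigene51500, CL5653, CL2954, CL2133, CL4869, and Unigene68158 turned when scaled to actin.

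The widest ratios of the comparison belonged to genes without a name. CL3005 stood at 0.34, 0.69, and 0.66 FPKM in control and 657, 638, and 651 FPKM at 24 h, log2 ratio 9.27 ± 0.32 (SE, limma adjusted p = 3.40e-15). Unigene24481 rose from 0.39, 0.4, and 0.48 to 293, 291, and 323 FPKM, log2 ratio 8.36 ± 0.38 (SE, limma adjusted p = 2.71e-13). Unigene48386 fell from 506, 612, and 563 FPKM to 0.7, 0.59, and 0.98 FPKM, log2 ratio -8.81 ± 0.16 (SE, limma adjusted p = 5.62e-18), and Unigene48396 from 258, 339.98, and 317 to 0, 0, and 0.18 FPKM, log2 ratio -9.10 ± 0.30 (SE, limma adjusted p = 1.43e-15). Both falls exceeded that of actin. Over all genes, 394 were listed at 0 in the 3 control libraries with at least 1 FPKM in every 24 h library, and 3808 were listed at 0 at 24 h with at least 1 FPKM in every control library. Of the 157 list genes, 6 were of the first kind and 2 of the second, against 394 and 3808 of all 139844 genes.

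The comparison with female roots at 12 h of NaCl shows what changed within the treatment, and it uses no control library. Of all genes tested, 11055 (11.6%) were DEGs, 2610 (2.74%) higher at 24 h and 8445 (8.87%) lower, with 4236 higher and 5720 lower when scaled by the median of ratios, which moved the median of all genes from -0.21 to -0.03. Of the 146 list genes, 27 were higher and 10 lower (25.3%). Small heat shock proteins rose further in 18 of 20 genes, with a median log2 ratio of 2.60. Their summed level was 350.2, 338, and 342 FPKM at 12 h and 1758, 1806, and 1795 FPKM at 24 h, without overlap. CL697 went from 105, 103, and 105 FPKM at 12 h to 859.9, 895, and 885 FPKM, log2 ratio 3.07 ± 0.48 (SE, limma adjusted p = 1.11e-04). CL17724 stood at 143, 134, and 133 FPKM at 12 h.

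Genes of the other groups had lower ratios against 12 h than CL697. Beta-glucosidase CL19012 held 3819, 3829, and 3885 FPKM at 12 h, log2 ratio 1.34 ± 0.32 (SE, limma adjusted p = 0.00523), and 2 of 8 genes of its group rose. *MYB13* gene CL2555 and sugar transporter CL1787 rose from 159 ± 6.25 and 777 ± 4.95 FPKM (SD, n = 3) at 12 h, with log2 ratios of 1.16 and 1.11. *WRKY33* gene CL3639 had 999.95, 982, and 975 FPKM at 12 h and a log2 ratio of 0.81, under the threshold of a DEG. None of the 5 *NHX* genes was a DEG between the times, and CL7345 stood at 7.77, 7.16, and 7.76 FPKM at 12 h. Ferritin CL4009 had a log2 ratio of 0.98. Annexin CL17084 was below both other groups at 12 h, with 0.81, 1.22, and 0.75 FPKM, and had a log2 ratio of 2.77.

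All 4 proteasome genes were lower at 24 h than at 12 h, from CL5653 (-1.83) to Unigene51500 (-1.21), also with libraries scaled by the median of ratios, while of the 5 then tested 1 was lower and none higher when scaled to actin. ATP synthase gene Unigene68161 was lower too, with 1.73, 1.18, and 0.92 FPKM at 12 h and 0.09, 0, and 0.1 FPKM at 24 h, log2 ratio -1.64 ± 0.47 (SE, limma adjusted p = 0.0182). Actin CL19537 fell from 57.1, 56.5, and 54.5 FPKM at 12 h, log2 ratio -1.78 ± 0.37 (SE, limma adjusted p = 0.00186).

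**Figure D4:**
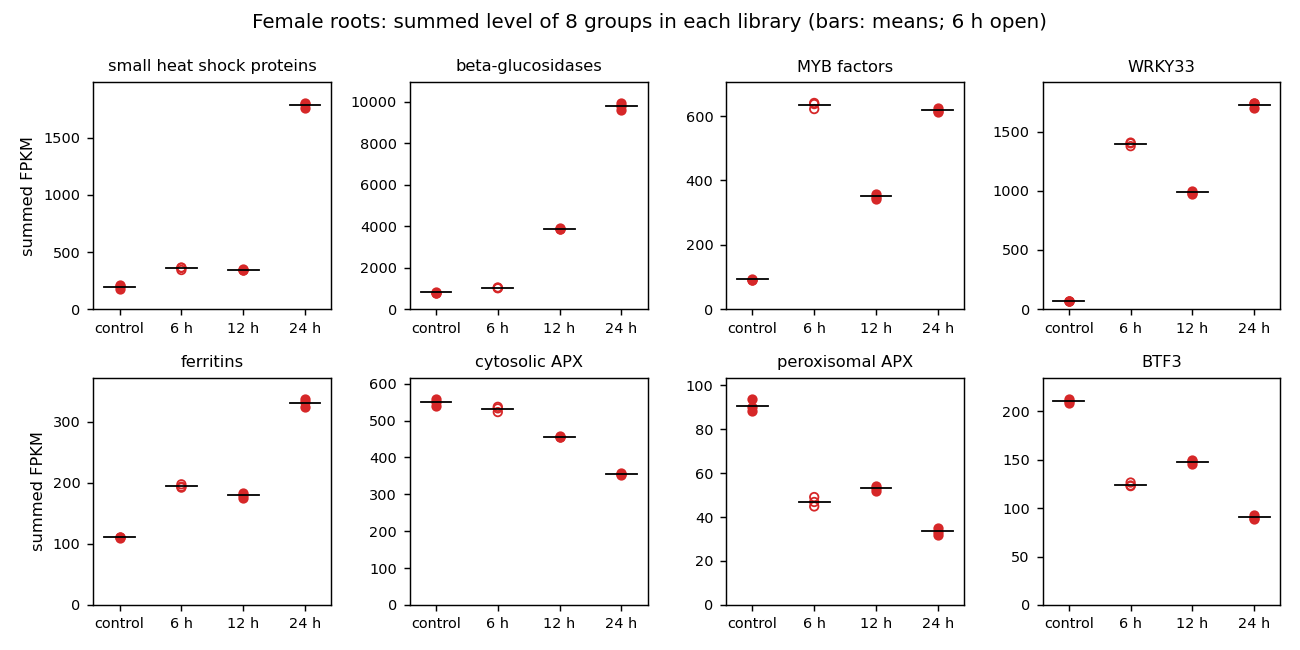
Summed FPKM of 8 list groups in each female library in control and at 6, 12, and 24 h of NaCl (categories, not to a time scale), with black bars at the means of 3 libraries and the 6 h libraries, whose leading contigs differ in 56.4% of clusters from those at 24 h, drawn open. Small heat shock proteins reach 1786 FPKM at 24 h from 343.6 FPKM at 12 h; the lower levels of the ascorbate peroxidase and basic transcription factor 3 groups turn relative to actin.

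Whether the response differed between the sexes was tested as the female log2 ratio minus the male log2 ratio at 24 h, each against the controls of its own sex. Of all genes tested, 34759 (36.5%) differed, 17846 (18.7%) with a higher and 16913 (17.8%) with a lower female ratio. With libraries scaled by the median of ratios, which moved the median difference of all genes from -0.02 to -0.245, these were 11262 and 20671. Of the 146 list genes, 61 (41.8%) differed, 32 higher and 29 lower in females. This near-even split depended on the scaling. Under the median of ratios, more list genes had a lower than a higher female ratio. Sex and plant cannot be told apart here if each sex came from 1 individual, and male control and male 24 h libraries led with different contigs in 60.1% of clusters.

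Of the small heat shock proteins, 10 of 20 had a lower and 2 a higher female ratio, the same counts with libraries scaled by the median of ratios, and 6 and 3 when scaled to actin. Their summed level at 24 h was 1758, 1806, and 1795 FPKM in female and 5592, 5545, and 5519 FPKM in male roots, from 195 ± 18.2 and 218 ± 3.06 FPKM (SD, n = 3) in control. CL697 reached 2399.9, 2341, and 2259 FPKM in male roots at 24 h, and its difference between the sexes, -0.33 ± 0.68 (SE, limma adjusted p = 0.749), passed no threshold. Unigene17995, which reached 46.0 to 48.6 FPKM in female roots, was at 0, 0.14, and 0 FPKM in male roots at 24 h.

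Beta-glucosidase CL19012 had the lowest difference of the list genes that were higher DEGs in females. CL19012 stood at 10088, 10029.7, and 9632 FPKM in male roots at 24 h, a mean of 9917 FPKM against 9739 FPKM in female roots, but at 19.8, 16.4, and 17.1 FPKM in male control roots, which gave a difference of -5.48 ± 0.45 (SE, limma adjusted p = 6.63e-09). Likewise CL3639 in male 24 h roots was at 1781 ± 25.8 FPKM (SD, n = 3) and CL1787 in the same roots at 1749 ± 40.7 FPKM, with differences of -1.17 ± 0.35 (SE, limma adjusted p = 0.0125) and -1.87 ± 0.26 (SE, limma adjusted p = 8.91e-06). *MYB13* gene CL2555 had a log2 ratio of 4.82 in female and 4.82 in male roots.

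*NHX* gene CL7345 fell in both sexes, in males from 64.2, 63.3, and 61.7 to 5.21, 4.4, and 5.37 FPKM, a difference of 2.44 ± 0.28 (SE, limma adjusted p = 8.09e-07). The other *NHX* gene with a called difference was Unigene43275, whose level was 0.12 FPKM or less in female libraries of either group and in males went from 1.43 ± 0.0755 to 0.103 ± 0.0961 FPKM (SD, n = 3). CL9910, CL2217, and CL3276 had differences of -0.52, 0.07, and 0.003, which passed no threshold, but scaled by the median of ratios they were -1.21, -0.61, and -0.70, and that of CL9910 was called. Aquaporin gene Unigene7100 went from 7.56, 8.06, and 7.03 to 2.89, 2.56, and 3.52 FPKM in males, a difference of 3.35 ± 0.32 (SE, limma adjusted p = 6.83e-08), and *SAPK1* gene CL1315 from 15.3, 17.7, and 16.3 to 3.17, 2.38, and 2.81 FPKM, a difference of 2.61 ± 0.20 (SE, limma adjusted p = 2.83e-09). Cytosolic ascorbate peroxidase gene Unigene17127 had overlapping female groups, with 32.5, 30.4, and 25.5 FPKM in control and 29.9, 29.2, and 37.2 FPKM at 24 h, and was listed at 0 in male control but at 26.6, 24.8, and 27.5 FPKM in male 24 h roots. *WRKY33* gene Unigene26361 was lower at 24 h in females and, in males, stood at 0, 2.45, and 0.4 FPKM in control and 5.21, 5.53, and 4.74 FPKM in 24 h roots, a difference of -5.16 ± 0.69 (SE, limma adjusted p = 5.49e-06).

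**Figure D5:**
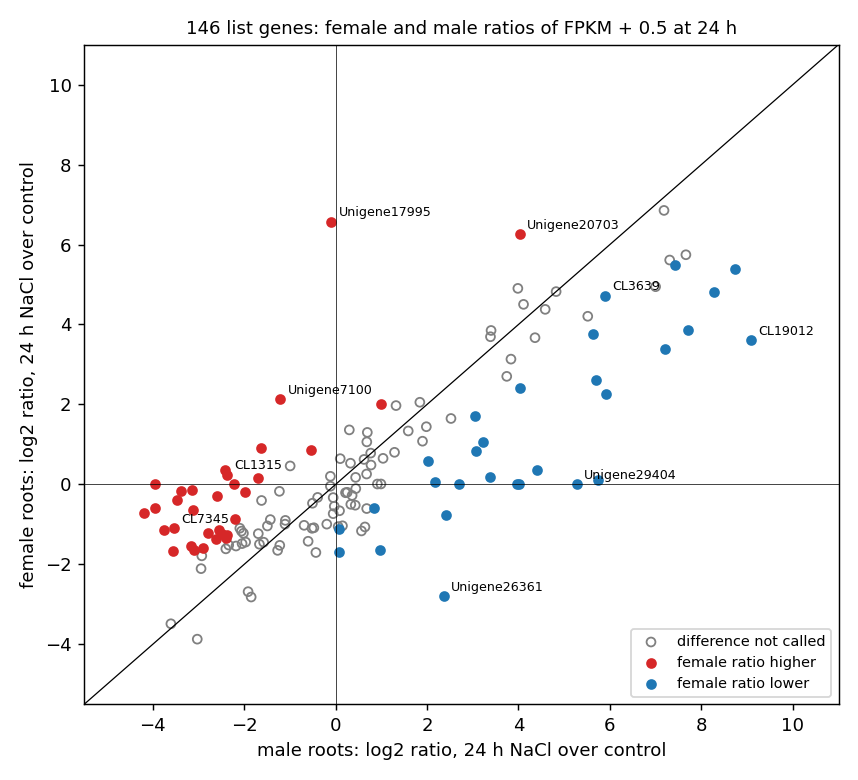
Log2 ratio of FPKM + 0.5, 24 h NaCl over control, of 146 list genes in male (x axis) and female (y axis) roots, with the line of equal ratios; red points have a higher and blue points a lower female ratio by the test of the difference, and open points passed no threshold. CL19012 lies right of the line, with 3.61 in female and 9.09 in male roots, and Unigene7100 and CL1315 lie left of it.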

How the data were processed

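RNA-seq was made of root RNA in 24 libraries, 3 for each of 2 sexes and 4 conditions. The values are FPKM that the authors deposited for the contigs of a Trinity assembly of Illumina reads, and the methods call the unit RPKM. The aligner and the counter were not given in the sources used, nor was the depth of a library, so no counting interval was set.

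The 253209 contigs were summed by cluster to 139844 genes, of which the 95202 that reached 1 FPKM in 3 or more libraries were tested. Log2(FPKM + 0.5) was fitted with limma 3.58.1 (R 4.3.3, with package data.table in version 1.17.8), with 8 group means over all 24 libraries, a mean-dependent prior, and Benjamini-Hochberg adjustment. Contrasts were female 24 h against control, female 24 h against 12 h, and the female minus the male response. The fit was tested on simulated data. Alternatives changed the pseudocount (0.1 or 1), the filter, the scaling, the threshold (adjusted p of at most 0.01), the libraries, the block, and the summing of contigs. Sums and figures used Python 3.11.15 with pandas 2.3.3, numpy 2.4.6, and matplotlib 3.10.9. In single unigenes of low level, the variance of recovered steps of FPKM over their mean was 1.69 in control and 1.51 at 24 h, where counting alone gives 1.

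Members and lists were chosen with earlier results of these data known. Named genes were all *NHX* and *WRKY33* genes, actin, 4 genes of the study's interest (CL1315, Unigene7100, Unigene57331, CL4278), the 2 highest and 2 lowest ratios of families with at least 4 tested genes, every DEG of smaller or mixed groups, the 5 list genes that changed most against 12 h and the 5 that differed most between the sexes, and the 2 highest and 2 lowest unnamed genes. CL12066, CL13878, CL2500, CL2944, CL4285, CL4614, CL4774, CL8158, Unigene12477, and Unigene43889 were named after their values were seen. Male 6 and 12 h libraries and female 6 h libraries were used in the common fit, the filter on low values, and the scaling factors. Female 6 h libraries also entered the plot of sums by time and the comparison of leading contigs. Female 6 h and male 12 h libraries also served to recover the steps of FPKM.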

Additional observations from a re-analysis of the deposited data

Results flagged for a closer look

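Of the 75 list genes named by the rule and actin, 33 differed between the sexes in their response at 24 h, 18 with a higher and 15 with a lower female ratio, where 36.5% of all genes tested did, and the rule itself took in the 5 list genes that differed most. The difference itself was tested, as the female log2 ratio minus the male log2 ratio in limma, at the same thresholds as for DEGs. Male control and male 24 h libraries led with different contigs in 60.1% of clusters, against 24.3% in females, and the part of this in the differences was not tested.

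The female ratio was lower, with the difference in parentheses, for the cytosolic ascorbate peroxidase gene Unigene17127 (-5.62), the beta-glucosidase genes CL19012 (-5.48) and CL3595 (-2.24), the small heat shock protein genes Unigene29404 (-5.27), Unigene19260 (-3.46), Unigene14279 (-3.34) and CL17724 (-2.17), the *WRKY33* genes Unigene26361 (-5.16) and CL3639 (-1.17), the ferritin gene Unigene5413 (-3.20), the BAG regulator gene Unigene64280 (-2.61), the actin gene CL19537 (-2.33), the transporter gene CL1787 (-1.87), and the proteasome genes Unigene51500 (-1.76) and CL5653 (-1.18). Unigene29404 is listed at 0 in all female control and 24 h libraries, CL3595 in all control libraries of both sexes, and Unigene17127 and Unigene51500 in all male control libraries, so that their values depend on the 0.5 added to the FPKM. These 15 genes kept their call with libraries scaled by the median of ratios.

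The female ratio was higher for the transporter genes CL8420 (1.01) and Unigene7100 (3.35), the BAG regulator gene CL12578 (1.05), the signalling genes CL12340 (1.11) and CL1315 (2.61), the coenzyme A synthesis gene CL14846 (1.25), the RNA and chromatin genes CL2909 (1.31) and Unigene62715 (1.46), the basic transcription factor 3 genes CL3930 (1.42) and CL18251 (1.88), the persulfide dioxygenase gene CL18355 (1.58), the *NHX* genes Unigene43275 (1.85) and CL7345 (2.44), the peroxisomal ascorbate peroxidase genes Unigene17812 (2.23) and Unigene28724 (3.09), the small heat shock protein genes Unigene20703 (2.23) and Unigene17995 (6.67), and the ferritin gene CL5890 (2.31). Unigene17995 and Unigene43275 were at 0 in each female control library, Unigene20703 in each male control library, and Unigene17812 in all female control and 24 h libraries, so that these values are no folds. With libraries scaled by the median of ratios the call was lost for CL8420 (0.30), CL12578 (0.42), CL12340 (0.53), CL2909 (0.625), CL14846 (0.695), CL3930 (0.72), CL18355 (0.90), and Unigene17812 (1.24). Of the genes named after their values were seen, CL12066 (-1.93) had a lower and CL2500 (1.34), CL4774 (1.41), and CL2944 (1.79) a higher female ratio, and CL2500 (0.64) and CL4774 (0.71) lost this call under that scaling. Of the same genes, Unigene43889 (-1.38) and CL8158 (-1.08) there gained a call with a lower female ratio.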

How the results depend on the processing

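FPKM are shares of a library, so a rise of abundant genes and a loss of RNA from the others cannot be told apart. Reads per library are unknown, and genes under 1 FPKM were called in 5.21% (higher) and 9.60% (lower) of cases.

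Scaled by the median of ratios (library factors from 1.21 to 1.22 in control and from 0.843 to 0.848 at 24 h), lower genes against control came to 13718, higher genes against 12 h to 4236, and higher female ratios against males to 11262. The share of higher genes among DEGs then went from 28.5% to 45.6% against control, from 23.6% to 42.5% against 12 h, and from 51.3% to 35.3% for the sexes. Of the 8575 higher genes 8544 stayed DEGs, of the 21509 lower genes 13696 did, and none turned. Scaled to actin, which itself fell, higher and lower genes came to 55757 and 2159 against control, 28417 and 3304 against 12 h, and 38193 and 9405 for the sexes. With each contig as its own feature, so that more features were tested, the counts were 17831 and 32903 against control, 4397 higher against 12 h, and 38912 and 31517 for the sexes. With a pseudocount of 1, 5460 genes were lower against 12 h. Leaving out 1 library at a time gave 7957 to 8404 higher and 20399 to 20786 lower genes against control, 2119 to 2538 and 7188 to 7413 against 12 h, and 16758 to 17050 and 15825 to 16240 for the sexes.

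Deviations of libraries with the same replicate number correlated from -0.005 to 0.003, and those with different numbers from -0.01 to 0.012. No shared deviation by number was seen, which cannot tell whether the experiments were paired. With the replicate number as a block, 8544 genes were higher and 21492 lower against control, 2590 and 8397 against 12 h, and 17787 and 16896 for the sexes, and no named gene changed its call.

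Of the 80 named genes, 40 no longer had a lower value when scaled to actin, with log2 ratios of CL19537 0.00, Unigene26361 0.39, Unigene51500 0.66, CL5653 0.73, Unigene23722 1.15, Unigene15143 1.53, Unigene64280 1.59, Unigene24762 1.62, Unigene26100 1.79, CL11411 2.01, Unigene62715 2.01, Unigene10323 2.29, CL2954 2.33, Unigene75289 2.39, Unigene68158 2.43, CL4869 2.56, Unigene68418 2.65, CL2133 2.71, CL18251 2.72, CL13859 2.72, Unigene56811 2.74, CL12340 2.76, CL14846 2.76, Unigene12580 2.81, CL2909 2.84, CL19312 2.86, CL2013 2.87, CL1281 2.91, CL12578 2.96, Unigene18671 3.02, Unigene5413 3.19, CL7345 3.21, CL18355 3.21, CL3930 3.33, Unigene24178 3.35, Unigene13449 3.44, Unigene28724 3.59, CL9910 3.90, CL2217 4.06, CL5890 4.11; that of actin itself is 0 by construction. Under the other settings none of the DEGs among them changed direction. Of genes that were no DEGs, CL2217 (0.18), CL5890 (0.215), Unigene28724 (0.08), Unigene13449 (0.11), and Unigene26100 (0.015) turned by the median of ratios, and Unigene26100 (0.03) without female 24 h replicate 1. Scaled by the median of ratios, 16 lost and 2 gained a DEG call, CL3276 (1.12) and CL9911 (1.30), and so did CL4614 (1.04), CL4774 (1.38), and CL8158 (1.17), named beside the rule.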
